A study of Mus musculus with 32 samples.

Results

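The transcripts described here are those of the mitochondrial genome, and the members were all genes on the mitochondrial chromosome that have a row in the deposited expression table. They were 16 of 33397 genes, namely all 13 protein-coding genes, both ribosomal RNA (rRNA) genes and 1 of the 22 transfer RNA (tRNA) genes in the annotation, mt-Tp. The other 21 tRNA genes, which are 59 to 75 bases long, were not analysed here. RNA was sequenced from GAS muscle, the gastrocnemius of the calf, of mice labelled C57BL/6 (C57BL/6J in the study's methods), with 4 samples at each of 8 time points and 32 samples in all. The mice were males aged 6 to 8 weeks and carried no engineered allele in these groups. The groups were 1, 3, 5, 7, 14, 21 and 28 d after sciatic nerve transection, which removes the motor supply of the muscle, and 0 d. The labels list the nerve operation for the 0 d samples too, while the study's methods describe a sham operation, so the 0 d group is called sham below. Each group was compared with the same 4 sham samples, so the 7 comparisons are not independent of each other. The labels do not tie samples to animals, while the study describes its sequenced samples as biologically independent.

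The mitochondrial genome is a small circle that is copied and transcribed inside the organelle. Both of its strands are transcribed as long RNAs, and most of these are cut at the tRNAs that lie between the other genes. The 13 mRNAs encode core subunits of respiratory complexes I, III and IV and of the ATP synthase (complex V), and the 2 rRNAs are the RNA core of the mitochondrial ribosome that translates them. All other subunits, and the enzymes that transcribe and process mitochondrial RNA, are encoded in the nucleus. Muscle fibres hold many mitochondria, and muscle RNA is rich in these transcripts.

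Values are FPKM, fragments scaled by the exon length of the gene and by the library total, so that gene length is allowed for. Levels of members with near-identical nuclear copies, described below, are uncertain and cannot be compared with those of other genes in this way. A fold change is the difference of group means of log2(FPKM + 1) and is given with its standard error (SE). A gene was called when it differed at least 1.5-fold at an adjusted p under 0.05 in limma with Benjamini-Hochberg adjustment over all 22071 genes tested. All 16 members passed the filter on low values. Samples held between 14199902 and 17561584 fragments in all. Across samples, mt-Co1 held 445310 to 1211369 fragments and mt-Nd4l 56 to 206, while mt-Atp8 held 0 to 8, so that counting error is largest for mt-Atp8 and next for mt-Nd4l.

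The tissue label was checked because the extraction text of the labels names retinas. The summed FPKM of 14 muscle fibre markers was 28242 to 56804 in the 32 samples. That of the 9 retina markers present was 2.66 to 5.78, and Rcvrn, Crx, Nrl and Prph2 had 3 fragments or fewer in every sample. Cell type markers also differed between the times. The muscle fibre list summed to 52905 to 56804 FPKM in sham, to 28242 to 33254 at 3 d, where it was lowest, and to 37159 to 39021 at 14 d, where the mitochondrial share was lowest. The sum of 8 macrophage markers was 122 to 175 FPKM in sham and 332 to 833 at 14 d, and that of 8 Schwann cell markers was 133 to 285 in sham and 42.6 to 72.5 at 14 d. Their part in the results was not tested, and in whole muscle fewer cells of a type and less RNA per cell cannot be told apart.

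Neighbouring mitochondrial genes overlap, and the shared bases are shown because a fragment from them can belong to either gene. The following sequences are from the GENCODE release 21 mouse transcripts (GRCm38), written 5′ to 3′. The first line is the end of mt-Atp8 at chrM:7880-7969, with the 43 bases shared with mt-Atp6 in capitals, and the second is the end of mt-Nd4l at chrM:10114-10173, with the 7 bases shared with mt-Nd4 in capitals. The third is the whole of mt-Tp, the proline tRNA, on the minus strand at chrM:15356-15422, with the anticodon TGG in capitals.
mt-Atp8: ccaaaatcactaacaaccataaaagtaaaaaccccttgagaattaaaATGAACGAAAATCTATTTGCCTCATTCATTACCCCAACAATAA
mt-Nd4l: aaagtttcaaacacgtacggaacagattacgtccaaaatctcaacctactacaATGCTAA
mt-Tp: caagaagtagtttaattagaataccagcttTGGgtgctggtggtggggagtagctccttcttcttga

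Other members share nearly their whole sequence with nuclear pseudogenes, and these sequences are shown because they decide which values are uncertain. On chromosome 1, 7 pseudogenes matched a member at 99% or more over at least 250 bases, all on the minus strand. Gm28661, Gm28437, Gm10925 and Gm10222 had no difference from mt-Co2, mt-Co3, mt-Atp6 and mt-Nd4l over 681, 783, 678 and 294 bases, which is all but the last few bases of each member. Gm28438 matched mt-Nd3 over 345 of 348 bases with 1 difference, T3C. Gm29216 matched only 483 of the 1545 bases of mt-Co1, with 1 difference, A1066T, and Gm28439 matched 876 of the 1378 bases of mt-Nd4 with none. Positions are counted from 1 at the 5′ end of the member, whose base is given first. The first lines below are the first 60 bases of mt-Atp6 (chrM:7927-7986) and mt-Co2 (chrM:7013-7072), which are the same in Gm10925 and Gm28661, with the start codon in capitals. The other 4 lines show mt-Co1 (chrM:6390-6422) beside Gm29216 (chr1:24616156-24616188) and mt-Nd3 (chrM:9459-9490) beside Gm28438 (chr1:24613088-24613119), with the base that differs in capitals.
mt-Atp6: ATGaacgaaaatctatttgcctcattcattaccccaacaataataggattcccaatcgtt
mt-Co2: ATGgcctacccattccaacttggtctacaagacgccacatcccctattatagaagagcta
mt-Co1: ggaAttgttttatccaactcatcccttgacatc
Gm29216: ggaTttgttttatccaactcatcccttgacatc
mt-Nd3: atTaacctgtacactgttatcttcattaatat
Gm28438: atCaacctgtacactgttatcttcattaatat

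The mitochondrial genome supplied a large share of all fragments in sham muscle and a smaller one after denervation. The 16 genes took 17.5%, 18.1%, 14.5% and 18.2% of the fragments in the 4 sham samples (mean 17.1% ± 1.76, SD). At 1 d the share was 14.3% ± 2.23 and overlapped with sham. Means were then 11.2% ± 1.65 (3 d), 9.11% ± 1.19 (5 d), 8.60% ± 1.93 (7 d) and 7.84% ± 0.958 (14 d), each with n = 4, and all samples from 3 d on were below the lowest sham sample. At 21 d the 4 samples held 10.2% to 12.0%, all above the highest 14 d sample of 9.27%, and at 28 d they held 9.33% to 11.7%. Nearly all of this was mRNA, which made up 16.7% of the fragments in sham, against 0.369% for the rRNAs, and mt-Tp was the smallest class. These shares are a description with no test.

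**Figure D1:**
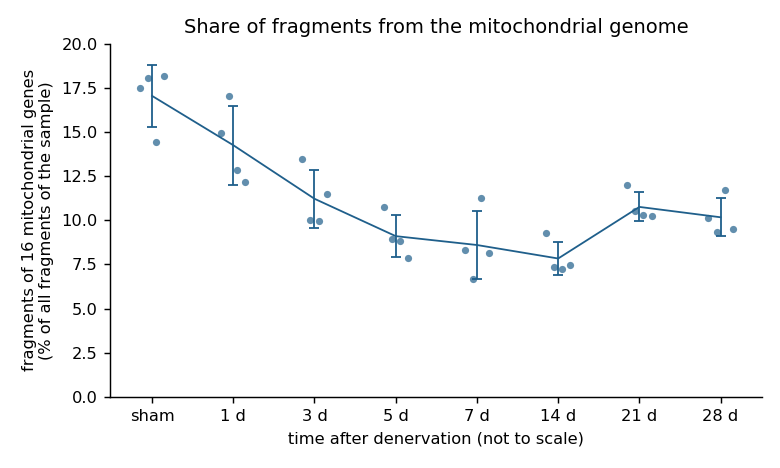
Share of all fragments of a sample that came from the 16 mitochondrial genes (y axis, percent) in sham muscle and at 7 times after denervation (x axis, not to scale). Points are samples and bars are mean ± SD of 4. The sham samples sit between 14.5% and 18.2%, and the 14 d samples between 7.27% and 9.27%.

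At 1 d, 1 member rose and 1 fell, where 6.34% of all genes tested were called higher and 2.49% lower. The count of members that fell was 9 at 3 d, where 6.03% of all genes were called lower. At 5 d and 7 d it was 14, against 3.86% and 4.1% of all genes, and at 14 d it was 15, against 3.83%. It was 11 at 21 d and 12 at 28 d, against 3.93% and 4.1%. From 3 d on 0 members rose in limma, and 0 had an unadjusted p under 0.05 on the higher side, where 13.2%, 14.9%, 15.4%, 14.6%, 11.8% and 14.2% of all genes were called higher at the successive times and 32.3% to 42.2% had such a p. The 16th member at 14 d was mt-Atp8, which held 8 fragments or fewer in every sample.

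All 4 samples lay below the 4 sham samples in 10 of the 16 members at 3 d, which was so for 12.3% of all genes. For 5 d there were 13 such members (8.93% of all genes), for 7 d 14 (8.47%), for 14 d 15 (8.13%), for 21 d 12 (9.99%) and for 28 d 14 (9.06%). The median log2 fold change of the 12 mRNAs other than mt-Atp8 was -0.32 (1 d), -0.66 (3 d) and -0.89 (5 d). It then reached -1.11 (7 d) and -1.13 (14 d), and was nearer to 0 later (-0.66 at 21 d, -0.72 at 28 d). The median of all genes tested lay between 0.03 and 0.15 at these times.

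**Figure D2:**
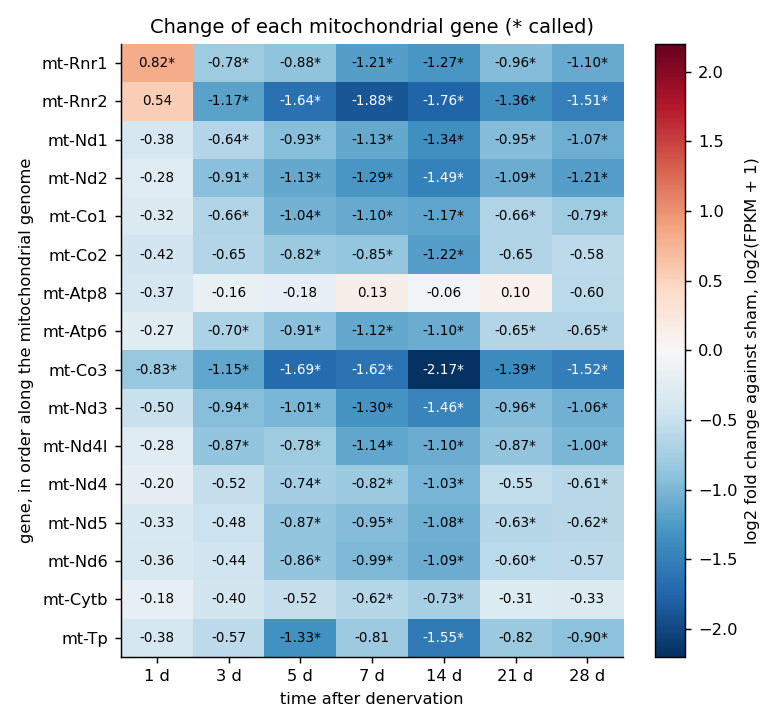
Log2 fold change of each mitochondrial gene against sham on the log2(FPKM + 1) scale (colour and number), by time after denervation (columns) and in gene order along the genome (rows); * marks a called gene. mt-Rnr1 and mt-Rnr2 are above 0 at 1 d and below it later, and mt-Cytb has the values nearest to 0 among the mRNAs other than mt-Atp8 at 14 d (-0.73).

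The mitochondrial rRNAs had a course of their own, with higher levels at 1 d and lower ones afterwards. mt-Rnr1 encodes the 12S rRNA of the small ribosomal subunit. It stood at 1148, 1139, 1291 and 1633 FPKM in sham and at 2622, 2727, 2096 and 1800 FPKM at 1 d, with no overlap. This was a rise of 0.82 on the log2 scale (SE 0.19, limma adjusted p = 0.00114), to 177% of the sham mean. mt-Rnr2, the 16S rRNA of the large subunit, stood at 1437, 1549, 1411 and 1782 FPKM in sham and at 2567, 2610, 2067 and 1831 FPKM at 1 d. Its groups did not overlap either, but its log2 difference of 0.54 (SE 0.17, limma adjusted p = 0.0153) was below the 1.5-fold limit, which it passed without the sham sample C4 (0.62) or the 1 d sample D1d (0.64). Both members lay wholly above sham, as did 19.9% of all genes, and the exact permutation p of such a separation, 0.0286, is the smallest that 4 against 4 samples can give.

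At 3 d the rRNAs were below the sham level. mt-Rnr2 had 1063, 612, 551 and 606 FPKM at 3 d, a fall of 1.17 on the log2 scale (SE 0.17, limma adjusted p = 1.55e-06). mt-Rnr1 had 1193, 637, 631 and 659 FPKM, a log2 fold change of -0.78 (SE 0.19, limma adjusted p = 0.00116), and its sample D3a overlapped with sham. Both falls were larger without D3a, with -1.38 for mt-Rnr2 and a limma adjusted p of 2.02e-05 for mt-Rnr1. The step from 1 d to 3 d was the steepest that any member took between consecutive time points. mt-Rnr1 fell by 1.60 (SE 0.19, limma adjusted p = 8.82e-08) and mt-Rnr2 by 1.72 (SE 0.17, limma adjusted p = 3.79e-09) on the log2 scale. At 14 d mt-Rnr1 had 585, 504, 530 and 516 FPKM and mt-Rnr2 522, 438, 419 and 445 FPKM, all below every sham sample.

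Set against the mRNAs of the same sample, the rRNAs moved in the same way. The summed FPKM of the 2 rRNAs was 1.96%, 1.97%, 2.49% and 2.50% of that of the 13 mRNAs in the sham samples. At 1 d it was 4.72%, 4.23%, 4.39% and 4.04%. At 3 d sample D3a held 2.24% and the others 1.45% to 1.66%, and later group means were 1.73% (5 d), 1.52% (7 d), 1.68% (14 d) and 1.57% (21 d), with 1.33% to 1.76% in the samples of 28 d. All 1 d samples were thus above all samples of every other time point. This ratio does not depend on the library total, and no test was made on it. Whether the libraries were poly(A)-selected or depleted of rRNA is not given in the sources used here, so the levels of rRNA and mRNA cannot be read as amounts in the tissue.

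**Figure D3:**
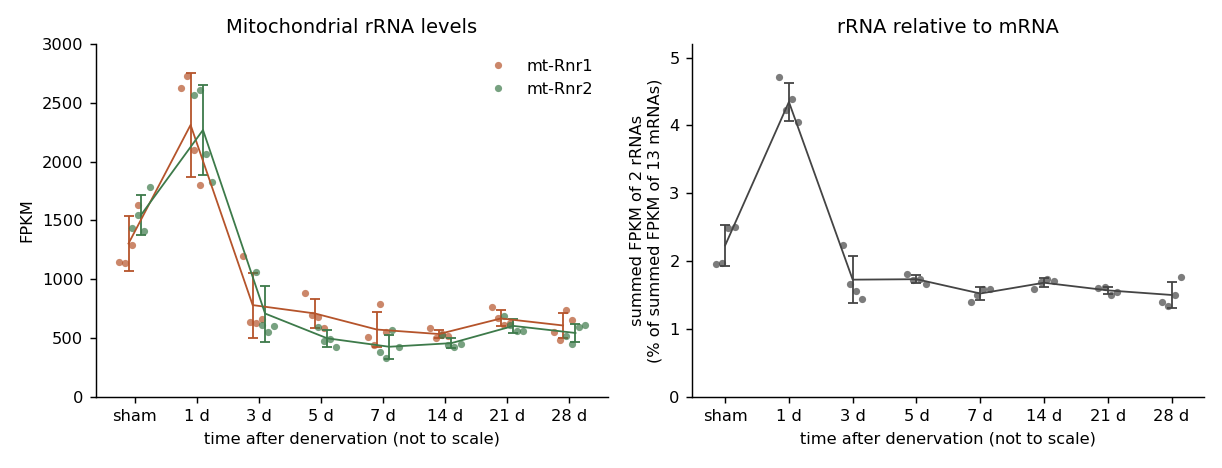
Left, FPKM of mt-Rnr1 and mt-Rnr2 by time after denervation; right, summed FPKM of both rRNAs as a percent of that of the 13 mRNAs. Points are samples and bars are mean ± SD of 4. The 1 d samples hold the highest ratios, 4.04% to 4.72%, and the sham samples hold 1.96% to 2.50%.

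The complex I genes encode membrane subunits of NADH dehydrogenase, the entry point of electrons from NADH. mt-Nd1 stood at 22226, 23482, 18518 and 23380 FPKM in sham and at 10070, 8119, 8288 and 8059 FPKM at 14 d, a fall of 1.34 on the log2 scale (SE 0.15, limma adjusted p = 2.26e-08). mt-Nd2 stood at 14051, 14507, 11373 and 13852 FPKM in sham and at 5626, 4635, 4349 and 4549 FPKM at 14 d, a fall of 1.49 (SE 0.15, limma adjusted p = 2.76e-09). Both genes were below every sham sample from 3 d to 28 d, and they were called lower at each of these times. The call of mt-Nd1 at 3 d was lost without D3b (-0.58) and in TPM (-0.47). Under quantile normalization mt-Nd1 was called at none of these times (-0.10 to -0.49), and mt-Nd2 lost its calls at 3, 5, 21 and 28 d (-0.29, -0.46, -0.36 and -0.50). At 28 d mt-Nd1 was at 47.6% and mt-Nd2 at 43.4% of the sham mean.

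mt-Nd4 and mt-Nd5, which lie farther along the genome, had log2 differences nearer to 0 than mt-Nd1 and mt-Nd2 at each time from 3 d on, though this difference between genes was not tested. mt-Nd4 had 8591, 9148, 7151 and 9154 FPKM in sham and 5132, 3860, 3840 and 3912 FPKM at 14 d (log2 fold change -1.03, SE 0.15, limma adjusted p = 1.89e-06). mt-Nd5 had 10716, 11429, 9242 and 11931 FPKM in sham and 6516, 5006, 4541 and 4550 FPKM at 14 d (-1.08, SE 0.17, limma adjusted p = 3.23e-06). mt-Nd4 and mt-Nd5 were called lower from 5 d to 14 d and at 28 d, and mt-Nd5 also at 21 d. At 3 d mt-Nd4 passed without C3 (-0.60) or D3a (-0.61). Their log2 fold changes at 21 d and 28 d lie close to the 1.5-fold limit, between -0.55 and -0.63, and that of mt-Nd4 at 21 d did not reach it. At 21 d mt-Nd4 passed without C3 (-0.63) or D21a (-0.59), and mt-Nd5 lost its call without C4 (-0.58). At 28 d mt-Nd4 lost its call without C2, C4, D28b or D28d (-0.57 to -0.58) and mt-Nd5 without C4 or D28d (-0.57). Under quantile normalization the log2 difference of mt-Nd5 was positive at these times (0.12 at 21 d and 0.25 at 28 d). mt-Nd3 and mt-Nd4l, both with near-identical nuclear copies, had sham means of 64.4 and 31.6 FPKM and 14 d means of 22.5 and 13.8 FPKM, and both were called lower at all times from 3 d on. With its copy added, mt-Nd4l lost the call at 3 d (-0.58, limma adjusted p = 0.071). mt-Nd3 passed at 1 d too without C3 (-0.65).

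mt-Nd6 is the 1 protein gene of the opposite strand, and its last 14 bases overlap mt-Nd5. It had 3428, 3700, 2972 and 3818 FPKM in sham and 2118, 1673, 1458 and 1337 FPKM at 14 d, a log2 fold change of -1.09 (SE 0.17, limma adjusted p = 2.84e-06). Its values at the other times were close to those of mt-Nd5, for example -0.44 against -0.48 at 3 d and -0.57 against -0.62 at 28 d. At 21 d its call (-0.60) was lost without C2, C4, D21b or D21d (-0.55 to -0.58), and at 28 d it passed without C3 or D28c (-0.64). Whether strand was used in counting is not given in the sources used here, so reads from mt-Nd6 and from the RNA of the other strand cannot be told apart.

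mt-Cytb, the mitochondrial subunit of complex III, was the mRNA with the log2 difference nearest to 0 at each time from 3 d on, mt-Atp8 aside. It stood at 23274, 22810, 19145 and 23719 FPKM in sham and at 15870, 13126, 12355 and 12523 FPKM at 14 d, a fall of 0.73 on the log2 scale (SE 0.16, limma adjusted p = 0.000551). It was called lower at 7 d (-0.62, SE 0.16, limma adjusted p = 0.0024) and 14 d only. At 7 d the call was lost without the sample D7b (-0.52) or D7d (-0.58), and at 5 d it passed without C3 (-0.59). The call at 7 d was also lost without the filter on low values and with only the 2 groups in the fit (limma adjusted p = 0.0551 and 0.0603). Under quantile normalization both log2 differences, 7 d and 14 d, were 0.10. At 28 d it had 17452, 16282, 21204 and 16203 FPKM, which overlapped with sham, and its log2 difference of -0.33 (SE 0.16) did not pass (limma adjusted p = 0.107).

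Complex IV, cytochrome c oxidase, has its 3 catalytic core subunits encoded here. mt-Co1 was the most abundant member, with 48381, 49759, 39123 and 49392 FPKM in sham and 24049, 18766, 19516 and 20807 FPKM at 14 d, a fall of 1.17 on the log2 scale (SE 0.19, limma adjusted p = 5.86e-06). It was called lower at every time from 3 d on and was at 57.7% of the sham mean at 28 d. Under quantile normalization its log2 difference was 0 at each of these times. The call at 3 d was also lost in TPM (-0.50), without the filter on low values (limma adjusted p = 0.14) and with only the 2 groups in the fit (limma adjusted p = 0.066). That at 21 d was lost in TPM (-0.51) and without the filter (limma adjusted p = 0.147), and that at 28 d without the filter (limma adjusted p = 0.0621). mt-Co3 had 477, 895, 561 and 569 FPKM in sham and 150, 112, 170 and 114 FPKM at 14 d, a fall of 2.17 (SE 0.28, limma adjusted p = 1.94e-07). It was the 1 member called lower at 1 d (-0.83, SE 0.28, limma adjusted p = 0.0238), a call that was lost without C2 (-0.64), D1a (-0.73) or D1d (-0.64). mt-Co2 had 434, 510, 281 and 355 FPKM in sham and 186, 137, 184 and 157 FPKM at 14 d (-1.22, SE 0.27, limma adjusted p = 0.000436). Its calls at 5 d and 7 d were lost without C2 and D7b, in that order (-0.68 each). At 3 d and 21 d its log2 difference of -0.65 did not pass, but did without C3 (-0.80 and -0.81), D3d (-0.74) or D21d (-0.75). At 28 d mt-Co2 had 204, 184, 553 and 212 FPKM, where the sample D28c alone lay above all sham samples. The log2 difference of -0.58 with all 4 samples was not called, but it was called without D28c (-0.94) or without the sham sample C3 (-0.73).

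Complex V, the ATP synthase, has 2 subunits encoded here. mt-Atp6, part of its proton channel, had 192, 175, 140 and 150 FPKM in sham and 109, 66.6, 72.7 and 61.7 FPKM at 14 d, a log2 fold change of -1.10 (SE 0.20, limma adjusted p = 3.73e-05). It was called lower at every time from 3 d on, but not at 3 d without D3b (-0.58) or at 21 d and 28 d without C1 (-0.57). mt-Atp8, whose gene runs into mt-Atp6, had at most 2.52 FPKM in any sample. It held 2, 2, 3 and 7 fragments in the sham samples and 2, 2, 0 and 1 at 28 d, and it was not called at any time in the fit of 32 samples. With only the 2 groups in the fit it was called lower at 28 d (limma adjusted p = 0.0411). Counts this low carry a large counting error, and the fold changes of mt-Atp8 are not interpreted.

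mt-Tp was the only tRNA gene with values. It had 3660, 3902, 3496 and 4055 FPKM in sham, and it was called lower at 5 d (-1.33, SE 0.37, limma adjusted p = 0.00354), 14 d (-1.55, SE 0.37, limma adjusted p = 0.000853) and 28 d (-0.90, SE 0.37, limma adjusted p = 0.0443). At 7 d (2092, 1627, 2806 and 2269 FPKM) and 21 d (2396, 2192, 2006 and 1987 FPKM) all samples were below sham, but the log2 differences of -0.81 and -0.82 were not called (limma adjusted p = 0.0731 and 0.0759). Both were called with only the 2 groups in the fit (limma adjusted p = 0.00374 and 8.38e-05) and under median-ratio scaling (-1.19 and -1.12). At 5 d the samples held 2228, 1940, 1882 and 618 FPKM, and at 14 d 2126, 1631, 1645 and 481 FPKM. The samples D5d and D14d, and D1d with 1404 FPKM at 1 d, stood far below the others of their groups. Without them the log2 differences were -0.91 at 5 d, -1.08 at 14 d and -0.03 at 1 d, and the first 2 were still called. The call at 28 d was lost without any of C1, C2, C3, C4, D28a, D28b or D28d (-0.85 to -0.94), and without the filter on low values (limma adjusted p = 0.0735). In D5d and D14d mt-Tp stood at 4.40% and 3.84% of mt-Cytb, against 12.1% to 13.4% in the other samples of these times, while the fragments of all nuclear genes under 100 bases, 7506 and 10150, were within the range of the other samples. mt-Tp lies on the opposite strand downstream of mt-Cytb, next to the gene-free part of the genome, and the remark on strand made for mt-Nd6 holds for it too.

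The make-up of the mRNA pool shifted as well as its size. mt-Cytb was 17.3% ± 0.440 (SD, n = 4) of the summed FPKM of the 13 mRNAs in sham, 18.8% ± 0.378 at 1 d, 22.4% ± 0.991 at 5 d and 23.2% ± 0.546 at 28 d, and all 28 denervated samples were above the highest sham sample of 17.6%. mt-Nd2 was 10.5% ± 0.230 in sham and 10.6% ± 0.241 at 1 d, and its share was 8.45% ± 0.314 at 3 d and 7.61% ± 0.383 at 28 d, with all samples from 3 d on below every sham sample. mt-Nd1 was 17.1% ± 0.151 in sham, 16.6% ± 0.450 at 5 d and 13.6% ± 0.690 at 28 d. Group means of mt-Co1 lay between 32.7% and 36.5%. By complex, the complex I genes went from 45.4% ± 0.389 of the pool in sham to 40.8% ± 0.688 at 28 d, and complex III from 17.3% to 23.2%. These shares are percentages of a fixed total, so that one is lower where another is higher, and they carry no test. The pool as listed holds little of mt-Co2, mt-Co3, mt-Atp6, mt-Nd3 and mt-Nd4l, whose levels are uncertain because of their nuclear copies. Complex V, for example, was 0.129% of it in sham, so the shares of genes and complexes are those of the listed values only.

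**Figure D4:**
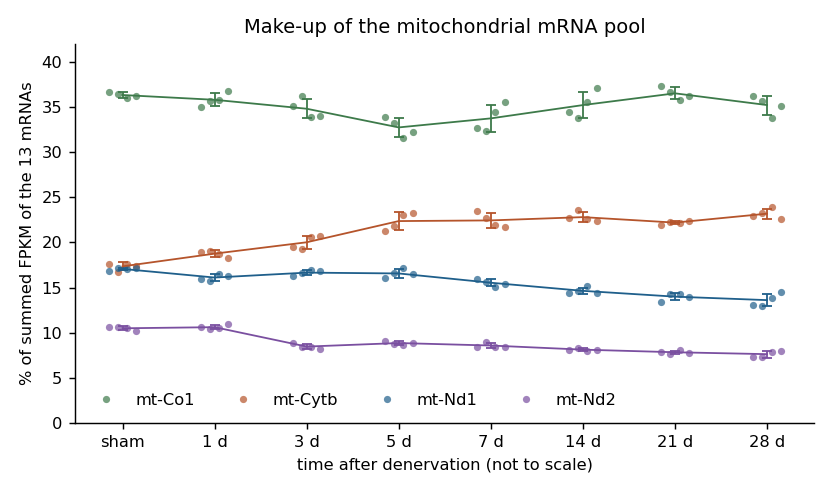
Percent of the summed FPKM of the 13 mitochondrial mRNAs (y axis) held by mt-Co1, mt-Cytb, mt-Nd1 and mt-Nd2, by time after denervation (x axis, not to scale). Points are samples and lines join means ± SD of 4. mt-Cytb is at 17.3% in sham and 23.2% at 28 d, and mt-Nd2 at 10.5% and 7.61%.

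Between consecutive time points, most changes of members were too small for a call. From 1 d to 3 d 4 members fell and 0 rose in limma, against 3.93% of all genes called lower and 6.63% higher, and 0 members had an unadjusted p under 0.05 on the higher side. Beside the rRNAs these were mt-Nd2 (-0.64, SE 0.15, limma adjusted p = 0.00147) and mt-Nd4l (-0.59, SE 0.21, limma adjusted p = 0.0355). The call of mt-Nd2 was lost without D1b (-0.56), D3b or D3c (-0.58 each), and that of mt-Nd4l without D1a, D1b, D1c, D3b or D3c (-0.44 to -0.59). Both calls were lost in TPM (-0.58 and -0.56), that of mt-Nd2 under quantile normalization (-0.29) and that of mt-Nd4l without the filter on low values (limma adjusted p = 0.0587). From 3 d to 5 d, 5 d to 7 d, 7 d to 14 d and 21 d to 28 d, 0 members were called in limma. In the same steps 2.05%, 0.208%, 0.258% and 0.0408% of all genes were called lower and 3.72%, 0.449%, 0.376% and 0.159% higher. The members with an unadjusted p under 0.05 numbered 4, 0, 0 and 1 on the lower side and 0 on the higher side, where all genes gave 9.55%, 5.8%, 6.19% and 2.35% on the lower side and 23.5%, 6.1%, 6.99% and 6.77% on the higher.

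The step from 14 d to 21 d was upward for the members as measured, without a call. In 11 of 16 members all 4 samples at 21 d were above all 4 at 14 d, as was the case for 2.27% of all genes. mt-Co1 had 33498, 28958, 27804 and 27910 FPKM at 21 d, and its log2 difference from 14 d was 0.51 (SE 0.19, limma adjusted p = 0.199). That of mt-Nd4 was 0.48 (SE 0.15, limma adjusted p = 0.12) and that of mt-Cytb 0.42 (SE 0.16, limma adjusted p = 0.247). In limma 0 members were called, where 0.0906% of all genes were called higher and 0.362% lower, while 12 of the 16 members had an unadjusted p under 0.05 on the higher side and 0 on the lower, as did 3.1% and 10.1% of all genes.

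The late samples, 12 in all from 14, 21 and 28 d, were also compared with sham as 1 group, at an unadjusted p limit of 0.05 and 1.5-fold. The study also sets these times together against sham. By the limits used here 14 of the 16 members were called lower and 0 higher, against 4.27% and 14.6% of the 20243 genes tested. The exceptions were mt-Atp8 and mt-Cytb, with a log2 difference of -0.45 (SE 0.18) for the latter. The largest fall was that of mt-Co3 (1.69, SE 0.21) and the next that of mt-Rnr2 (1.54, SE 0.12). mt-Nd2 fell by 1.26 (SE 0.14), mt-Nd1 by 1.12 (SE 0.15) and mt-Nd4 by 0.73 (SE 0.15). Under quantile normalization the late calls of mt-Co1 (0), mt-Nd1 (-0.27), mt-Nd2 (-0.51), mt-Nd4 (-0.16), mt-Nd5 (0.05) and mt-Nd6 (-0.49) were lost. That of mt-Co1 was also lost without the filter on low values (-0.87, SE 0.54).

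Members with a near-complete nuclear copy were listed at far lower levels than their neighbours. mt-Co2, mt-Co3, mt-Atp6, mt-Nd3 and mt-Nd4l had sham means of 31.6 to 626 FPKM, whereas the other mRNAs except mt-Atp8 had 3480 to 46664 FPKM. The copies held between 40.7% and 85.2% of the fragments of such a pair in sham. Gm10925 stood at 983 FPKM ± 206 (SD, n = 4) in sham and mt-Atp6 at 164 FPKM, and the copy held 85.2% of the fragments of both. Gm28661 held 50.4% of its pair with mt-Co2, Gm28437 40.7% with mt-Co3, Gm28438 69.7% with mt-Nd3 and Gm10222 57.2% with mt-Nd4l. The copies that match only a part of a member held little of the fragments of both, 0.147% for Gm29216 with mt-Co1 and 1.42% for Gm28439 with mt-Nd4. Such a low share does not show whether mt-Co1 and mt-Nd4 kept all fragments of the bases they share with a copy. The levels of mt-Co2, mt-Co3, mt-Atp6, mt-Nd3 and mt-Nd4l are therefore uncertain, since fragments of identical sequence could have been given to either gene or to neither. With each copy added, the sham means of these members were 73.2 to 1143 FPKM, still below those of the other mRNAs except mt-Atp8. The sum of a pair can thus not be read as the level of the member, and the cause was not tested.

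The copies too had lower levels at 14 d than in sham. Gm10925 was at 298 FPKM ± 69.9 at 14 d. Gm28661 was at 142 FPKM ± 15.8 at 14 d and at 399 FPKM ± 71.1 in sham. With each copy added to its member, a choice made after the values were seen, mt-Atp6 was at 1143 FPKM in sham and 374 FPKM at 14 d, mt-Co2 at 792 and 308 FPKM, and mt-Co3 at 1073 and 263 FPKM. In that fit the call of mt-Co3 at 1 d was lost (-0.67, limma adjusted p = 0.0546), and mt-Atp6 rose from 14 d to 21 d (1.08, SE 0.20, limma adjusted p = 0.00243). mt-Atp6 also fell from 1 d to 3 d (-0.65) and lost its call at 21 d (-0.55). mt-Nd4l lost its calls at 3 d (-0.58) and from 1 d to 3 d (-0.40, limma adjusted p = 0.271), while mt-Co2 was called lower at 3, 21 and 28 d too (-0.70, -0.72 and -0.69).

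**Figure D5:**
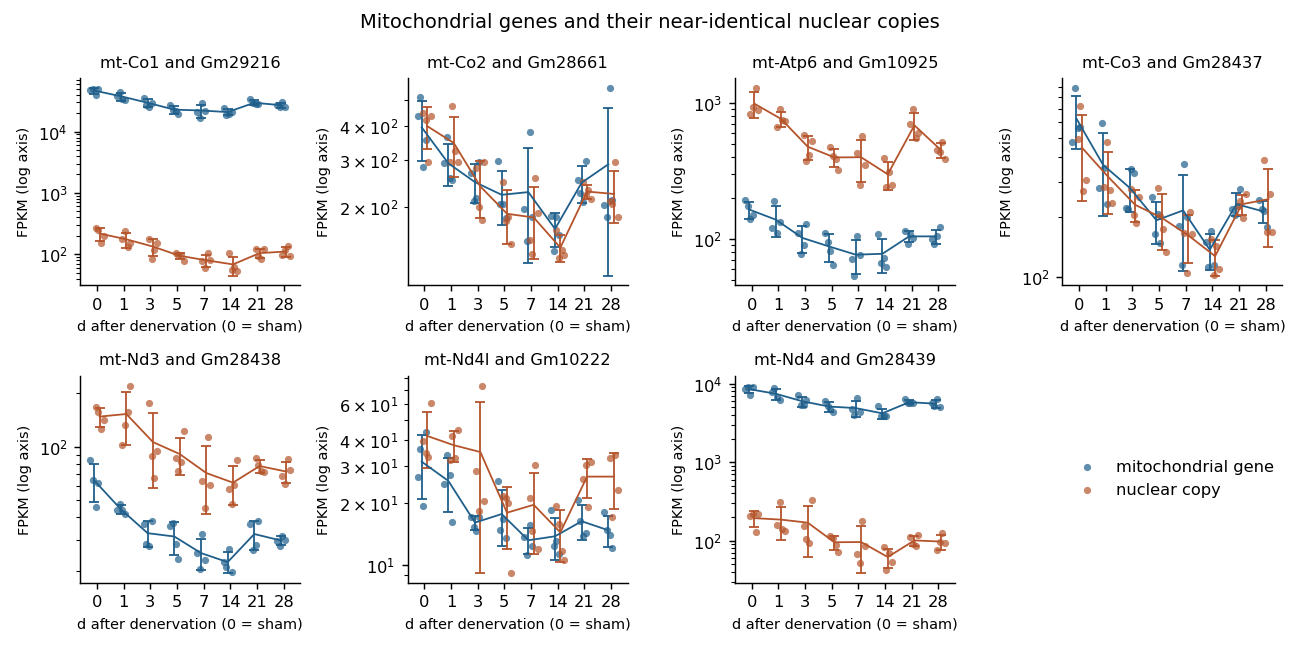
FPKM on a log axis of the 7 members with a near-identical nuclear copy and of that copy, by days after denervation (0 is sham). Points are samples and bars are mean ± SD of 4. Both members of a pair are lower at 14 d than in sham, for example mt-Co2 at 166 and 395 FPKM and Gm28661 at 142 and 399 FPKM.

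Some nuclear genes of the same complexes were called lower too. At 7 d 11 of 36 complex I genes tested, 4 of 4 complex II genes, 3 of 9 complex III genes, 5 of 14 complex IV genes and 5 of 15 complex V genes were called lower and 0 higher, where 4.1% of all genes were called lower and 15.4% higher. Their median log2 fold changes were -0.49, -0.87, -0.55, -0.51 and -0.45, against 0.13 for all genes tested. Complex II, which has no mitochondrial gene, is shown for comparison. At 3 d 27 of the 36 nuclear complex I genes were called lower and at 28 d 7, while for the 7 mitochondrial complex I genes the counts at these times were 4 and 6. Of all genes 6.03% were called lower at 3 d and 4.1% at 28 d. Under median-ratio scaling the nuclear count was 31 at 3 d and 26 at 28 d, and all 7 mitochondrial complex I genes were called lower at both times, while 9.17% and 8.12% of all genes were called lower under that scaling. The largest falls at 7 d were those of Cox7a1 and Cox8b, muscle isoforms of complex IV subunits (-1.84, SE 0.10, limma adjusted p = 1.16e-14, and -1.20, SE 0.11, limma adjusted p = 4.6e-10). Cox8a, the isoform of other tissues, rose by 0.85 at 28 d (SE 0.09, limma adjusted p = 1.13e-08) on the deposited scale. On that scale the median log2 difference at 28 d of the 11943 genes with a mean of at least 1 FPKM was 0.30.

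Most genes that handle mitochondrial DNA and RNA were not called. Of 18 genes of mitochondrial DNA transcription and replication, 4 were called higher and 0 lower at 7 d, with Rnaseh1, a nuclease for RNA-DNA hybrids, at 0.87 (SE 0.09), but 0 higher and 2 lower under median-ratio scaling. Of 26 genes of mitochondrial RNA processing and stability, 4 were called higher and 0 lower at 7 d, and 1 higher and 4 lower under median-ratio scaling. Of all genes 15.4% were called higher at 7 d, the same share as of the 26 genes, and 4.1% lower. Under median-ratio scaling these shares of all genes were 7.15% and 7.93%. The largest rises were those of Rexo2, a mitochondrial oligoribonuclease (1.20, SE 0.06), and Elac2, which cuts the 3′ ends of tRNAs (0.88, SE 0.08). Tfam, which packs mitochondrial DNA and starts its transcription, had 11.2 FPKM ± 0.463 in sham and 11.2 FPKM ± 0.724 at 7 d (limma adjusted p = 0.974). Polrmt, the mitochondrial RNA polymerase, had 5.39 and 5.94 FPKM (limma adjusted p = 0.231). Twnk, the DNA helicase, rose by 0.62 (SE 0.08, limma adjusted p = 2.05e-07), and Lrpprc, which stabilizes mitochondrial mRNAs, had a log2 difference of -0.30 (SE 0.06, limma adjusted p = 0.000146) that is below the 1.5-fold limit.

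Of the 17 genes chosen for mitochondrial content and 9 regulators of its amount, some fell together with the members. Slc25a4, the ADP/ATP carrier of muscle, fell by 1.54 at 7 d (SE 0.08, limma adjusted p = 9e-16), and Cs, citrate synthase, by 0.85 (SE 0.05, limma adjusted p = 1.92e-13). Vdac3, an outer membrane channel, fell by 0.89, and Slc25a5, another ADP/ATP carrier, rose by 0.73. The values and counts of this list and of the regulators are on the deposited scale. On that scale the median log2 difference at 7 d of the 11943 genes with a mean of at least 1 FPKM was 0.32. At 7 d 4 of the 17 were called lower and 1 higher. Of the 9 regulators 4 were called lower and 1 higher, and of all genes 4.1% and 15.4%, in that order. Among the regulators called lower were Esrra, a nuclear receptor for oxidative genes (-1.09, SE 0.10), and Ppargc1a, a coactivator of it (-0.79, SE 0.21, limma adjusted p = 0.0022).

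The scale of the values bears on all of these counts. Over 11943 genes with a mean of at least 1 FPKM, the median log2 difference from sham was 0.12 at 1 d and 0.32 at 14 d. Median-ratio scaling brought this median to 0.01 at 14 d, and the median of the 12 mRNAs was then -1.53, against -1.13 as deposited. Relative to the shift, the mitochondrial mRNAs were thus lower than the deposited scale shows. The same scaling turned the calls over all genes at 7 d from 3403 higher and 905 lower to 1577 higher and 1747 lower. In TPM, which give every sample the same sum, the mitochondrial genes themselves made up 33.0% of the sham total and 17.4% of that at 14 d, and the median of the 12 mRNAs was -0.94 at 14 d. TPM also ended the calls against sham of mt-Atp6 at 3, 21 and 28 d, mt-Cytb at 7 d and 14 d, mt-Nd4 at 5 d and 28 d, mt-Nd5 at 21 d and 28 d, mt-Nd6 at 21 d (-0.43 to -0.55 for these mRNAs) and mt-Tp at 28 d (-0.73), and in the late comparison those of mt-Nd4 (-0.56) and mt-Nd6 (-0.58). Quantile normalization ended those of mt-Nd4 and mt-Nd5 at every time at which they were called, and those of mt-Nd6 at 5, 7 and 21 d (-0.16, -0.47 and -0.31), mt-Tp at 5 d and 28 d (-0.84 and -0.68) and mt-Co3 at 1 d (-0.64). Other settings added calls. Median-ratio scaling added mt-Nd4, mt-Nd5, mt-Nd6, mt-Co2 and mt-Cytb at 3 d (-0.63 to -0.88), mt-Cytb at 5 d (-0.91) and 28 d (-0.71), mt-Co2 at 21 d and 28 d (-0.96 each), mt-Nd4 at 21 d (-0.85), mt-Nd6 at 28 d (-0.95), mt-Nd3 at 1 d (-0.68) and mt-Cytb in the late comparison (-0.82). An equal nuclear sum added mt-Cytb at 5 d (-0.59), mt-Co2 and mt-Nd4 at 21 d (-0.72 and -0.61) and mt-Nd6 at 28 d (-0.61). mt-Co2 was also called lower at 3 d and 21 d with only the 2 groups in the fit, with the stricter filter on low values and under quantile normalization.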

How the data were processed

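RNA-seq of GAS muscle covered 32 samples in 8 groups of 4. The authors deposited FPKM values, 1 per gene and sample, in a table of 33397 genes; the submitters' notes name CASAVA, HISAT2 2.1.0, DESeq2 and GRCm38, and the counter, its strand setting and its treatment of reads with several matches are not given in the sources used here. The extraction text of the labels names retinas and another kit than the study's methods. Groups came from the labels, and the 4 sham columns were matched to 0 d because the other 28 match the later times. Column letters are not tied to replicate numbers. Columns with no sample numbered 0.

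The values were whole fragments divided by exon length (GENCODE release 21) and a total per sample for 33356 genes, and 41 genes had no match. Below 200 fragments, 99.3% to 99.4% of values came out whole within 0.02 fragments. The floor was set at 3 fragments and covers counting error only. Near-identical copies were found with BLAST 2.17.0.

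log2(FPKM + 1) was fitted with limma 3.58.1 in R 4.3.3 (lmFit, then eBayes with a variance trend, two-sided) on genes with at least 0.1 FPKM in at least 4 samples, with all 32 samples in 1 fit, or 16 for the late comparison. The fit was tested on simulated data. The pseudocount of 1 makes folds of genes near or under 1 FPKM too small. Class shares and percentages of the mRNA pool were described without a test. Other steps ran in Python 3.11.15 (scipy 1.17.1, pandas 2.3.3, numpy 2.4.6), and plots were drawn with matplotlib 3.10.9.

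The members, gene lists and tests were chosen with earlier results of these data known. Named were all members, at most the 2 called genes with the largest fall and the 2 with the largest rise per nuclear list at 7 d and 28 d, the genes Tfam, Polrmt, Twnk, Lrpprc, Ppargc1a, Esrra and Cs whatever their values, and nuclear copies that take fragments. Alternatives covered the pseudocount, the filter, the scaling, the variance trend, the thresholds, the samples in the fit, each sample left out in turn and, added after the values were seen, copies summed to their members.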

Additional observations from a re-analysis of the deposited data

Results flagged for a closer look

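Among 128 groups of 4 values (16 members at 8 time points), 9 held a sample whose gap to the nearest other was large against the range of the group (Dixon's criterion), where chance gives about 1 in 20, or 6.4. At 3 d D3a had 1193 FPKM of mt-Rnr1 and 1063 FPKM of mt-Rnr2, against 631 to 659 and 551 to 612 FPKM in the others. At 14 d D14a was the highest of its group for mt-Nd1 (10070 FPKM) and mt-Nd4 (5132 FPKM). At 21 d D21a was the highest for mt-Nd4 (6296 FPKM), mt-Nd5 (7875 FPKM) and mt-Cytb (19666 FPKM). The sham sample C3 had the lowest mt-Co1, 39123 FPKM against 48381 to 49759 FPKM, and D28c the highest mt-Co2 at 28 d, 553 FPKM against 184 to 212 FPKM. Members of 1 sample share their library, so these flags are not independent of each other.

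The response at 3 d differed from that at 1 d in 4 members by the test of that difference in limma with Benjamini-Hochberg adjustment and the 1.5-fold limit. The log2 differences between 3 d and 1 d were -1.60 for mt-Rnr1, -1.72 for mt-Rnr2, -0.64 for mt-Nd2 and -0.59 for mt-Nd4l. mt-Rnr1 and mt-Rnr2 were lower in 4 of 4 samples at 3 d than in any sample at 1 d.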

How the results depend on the processing

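No paired analysis was possible because the letters and numbers of the table's columns are not tied to the replicate numbers of the labels. Quantile normalization, which gives every sample the same set of values and so limits how far the most abundant genes can differ, changed most: 7 members were called lower at 5 d instead of 14, 8 at 7 d instead of 14, 7 at 21 d instead of 11, 6 at 28 d instead of 12 and 8 instead of 14 in the late comparison, at 1 d 2 higher and 0 lower instead of 1 and 1, and from 3 d to 5 d 2 lower instead of 0. It also turned the log2 difference of mt-Cytb to 0.10 at 7 d and 14 d and that of mt-Nd5 to 0.12 at 21 d, 0.25 at 28 d and 0.050 in the late comparison. mt-Co1 and mt-Nd1 were called at no time under it, nor in the late comparison, where the calls of mt-Nd2, mt-Nd4, mt-Nd5 and mt-Nd6 were lost too. TPM gave 2 higher at 1 d, 7 lower at 21 d and 2 lower from 1 d to 3 d instead of 4. Median-ratio scaling gave 2 lower at 1 d, 14 lower at 3 d instead of 9, and 1 lower from 3 d to 5 d. An equal nuclear sum gave 2 higher at 1 d. The p threshold alone gave 2 higher and 2 lower at 1 d and 1 lower from 3 d to 5 d. A fit of only the 2 groups compared gave 1 higher from 14 d to 21 d. Adding the copies gave 0 lower at 1 d and 1 higher from 14 d to 21 d. Apart from the construction of quantile normalization, the cause was not tested. Leaving out 1 sample gave 1 to 2 members higher and 0 to 2 lower at 1 d, 7 to 11 lower at 3 d, 13 to 15 at 5 d, 12 to 14 at 7 d, 15 to 15 at 14 d, 9 to 13 at 21 d and 9 to 14 at 28 d, 2 to 4 from 1 d to 3 d, 14 to 14 in the late comparison, and 0 in the other steps and directions. Other settings left the counts within 1.5 times. mt-Atp8 held the fewest fragments of the members, 0 to 8 per sample, and was called lower at 28 d only with the 2 groups compared in the fit (limma adjusted p = 0.0411).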
